A study of Mus musculus with 15 samples.

Results

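The triple cytokine combination given to lung fibroblasts was compared with no cytokine. The 6 libraries compared, of 15 in the series, were 3 cultures stimulated with recombinant IL-33, IL-13 and IL-17A together and 3 untreated cultures. All were primary lung fibroblasts of wild-type BALB/cJ mice, a common inbred strain, and the labels give 20 h as the time for every library. The labels give no cytokine dose, no age, no animal and no batch. Nothing states that the 3 libraries of a group came from separate cultures or animals, so p-values measure only how much these libraries vary, and that variation may be technical. A gene was kept if 3 or more of the 6 libraries had at least 1 TPM, which left 13332 of 18078 genes. TPM, the deposited unit, is an abundance scaled by gene length and to a fixed total per library. The other 9 libraries, 3 per group, were given the pair IL-33/17A, the pair IL-33/13 or only IL-33.

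IL-33 is a cytokine related to IL-1 that damaged cells release. It binds ST2, encoded by Il1rl1, together with the accessory chain Il1rap, and signals through Myd88 and IRAK kinases to NF-kB. IL-13 is a type 2 cytokine that binds Il4ra with Il13ra1 and activates the transcription factor STAT6. IL-17A binds Il17ra with Il17rc, acts through the adaptor Traf3ip2, and is known in fibroblasts for raising neutrophil-attracting chemokines, partly through C/EBP factors and by slowing mRNA decay. Fibroblasts also make and contract the matrix of the lung, and their contractile genes are driven by serum response factor, which binds a DNA element called the CArG box.

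Short stretches of promoters are shown first, because the genes that differed most fall into groups whose known regulators bind different DNA elements. All sequences are from RefSeq on build GRCm38.p6, run 5′ to 3′ on the strand of the gene, and carry the matched element in capitals. The first set holds the NF-kB motif upstream of 3 neighbouring chemokine genes on the plus strand, at chr5:90891139-90891219 for Cxcl1, chr5:90903767-90903847 for Cxcl2 and chr5:90785993-90786073 for Cxcl3. The letters in capitals are identical in the 3 genes.
Cxcl1: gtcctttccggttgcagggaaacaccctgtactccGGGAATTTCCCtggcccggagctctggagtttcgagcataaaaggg
Cxcl2: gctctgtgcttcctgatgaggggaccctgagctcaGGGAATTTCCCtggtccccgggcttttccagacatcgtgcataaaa
Cxcl3: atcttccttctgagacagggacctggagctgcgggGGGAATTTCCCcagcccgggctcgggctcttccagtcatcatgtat

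A second set holds the C/EBP motif TTGCNNAA, in either orientation, upstream of genes of the IL-17 response. It comprises Saa3 on the minus strand at chr7:46715733-46715810, Steap4 on the plus strand at chr5:7960350-7960427 and Il6 on the plus strand at chr5:30012951-30013028.
Saa3: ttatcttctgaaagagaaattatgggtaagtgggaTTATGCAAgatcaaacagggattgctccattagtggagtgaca
Steap4: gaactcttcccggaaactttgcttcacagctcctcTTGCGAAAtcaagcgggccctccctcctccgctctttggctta
Il6: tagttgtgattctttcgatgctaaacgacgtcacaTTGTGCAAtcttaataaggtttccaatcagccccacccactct

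The last set holds the CArG box upstream of 4 genes of the contractile apparatus. These are Acta1 on the minus strand at chr8:123894804-123894883, Myl9 on the plus strand at chr2:156775268-156775347, Ldb3 on the minus strand at chr14:34588683-34588751 and Cnn2 on the plus strand at chr10:79988509-79988583.
Acta1: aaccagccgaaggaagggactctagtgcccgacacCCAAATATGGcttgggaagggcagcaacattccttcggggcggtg
Myl9: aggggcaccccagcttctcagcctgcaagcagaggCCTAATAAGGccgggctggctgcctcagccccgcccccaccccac
Ldb3: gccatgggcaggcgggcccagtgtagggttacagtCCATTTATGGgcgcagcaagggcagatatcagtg
Cnn2: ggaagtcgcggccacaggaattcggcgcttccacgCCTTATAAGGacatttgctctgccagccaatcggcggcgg

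Of the tested genes, 9573 matched a promoter entry, and the 250 bases upstream of the start were searched on both strands. The NF-kB motif lay in 34 of 224 promoters of genes at least 2-fold higher after the triple combination (15.2%), in 19 of 259 of those at least 2-fold lower (7.34%) and in 8.89% of all promoters searched. It lay in 9 of 19 promoters of NF-kB subunit and feedback genes and in 3 of 16 contractile promoters. The C/EBP motif TTGCNNAA lay in 45 of the higher genes (20.1%), 11 of the lower genes (4.25%) and 7.38% of all, and in 5 of 11 promoters of IL-17 response genes. The CArG box lay in 4 of the higher genes (1.79%), 13 of the lower genes (5.02%) and 1.15% of all, and in 4 of 16 contractile promoters. A STAT6 motif, TTCNNNNGAA, lay in 6.70% of the higher genes, 3.48% of the lower genes and 4.49% of all, and in 1 of 9 promoters of STAT6 response genes. Motifs could overlap each other, and a match describes letters in the window, not binding.

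The labelled cell type was checked against marker genes. All 14 fibroblast markers passed the filter, with a summed level of 9093 to 9722 TPM in triple-treated libraries and 13808 to 15171 TPM in untreated libraries. Macrophage transcripts were also abundant, with 16 markers summing to 16669 to 17355 TPM in triple-treated libraries and 18454 to 18733 TPM in untreated libraries. Lyz2, the lysozyme of myeloid cells, had 8628, 8642 and 8944 TPM after the triple combination and 10102, 10467 and 10329 TPM without it. The 6 epithelial markers with values summed to 7.98 to 10.2 TPM in triple-treated libraries and 4.42 to 7.25 TPM in untreated ones. Of the 3 tested, 2 rose, both by 2-fold or more, and 1 fell. The epithelial marker Epcam averaged 0.125 TPM in triple-treated libraries and was listed at 0 in untreated ones. Which cell type carried a transcript was not measured, and fewer cells of a type cannot be told apart from less RNA per cell. Estimated depth was 10.5 to 12.1 M reads per library. Triple-treated replicate 1 stood apart in its share of mitochondrially encoded transcripts, 3.87% of TPM against 4.99% and 5.0% in the other 2, while untreated libraries had 5.77% to 6.13%. Without that replicate 5179 genes were called, against 5934 with all libraries, and the contractile, collagen and neutrophil chemokine counts of higher, lower and 2-fold calls given below were the same.

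The triple combination changed a large part of the transcriptome. At an adjusted p under 0.05 in limma, 5934 genes differed from untreated (44.5% of those tested), of which 1731 rose (13.0%) and 4203 fell (31.5%). This split depended on scaling. TPM shares a fixed total, and the median log2 difference over all tested genes was -0.11. After median-ratio scaling, which moved that median to 0.01, 5390 genes were called (40.5%), of which 2818 were higher (21.2%) and 2572 lower (19.3%). At 2-fold or more on the log2(TPM + 1) scale the sides were near equal, with 364 genes higher (2.73%) and 367 lower (2.75%). That balance also depended on the scale, with 429 higher and 280 lower after median-ratio scaling and 419 higher and 514 lower with a pseudocount of 0.1 TPM. Those 364 genes took 8.72% to 8.83% of all TPM in triple-treated libraries and 1.80% to 1.82% in untreated libraries, and the 367 took 1.01% to 1.03% against 2.95% to 2.97%. The 3 triple-treated libraries lay above all 3 untreated ones for 2062 genes (15.5%) and below them for 5103 (38.3%).

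**Figure D1:**
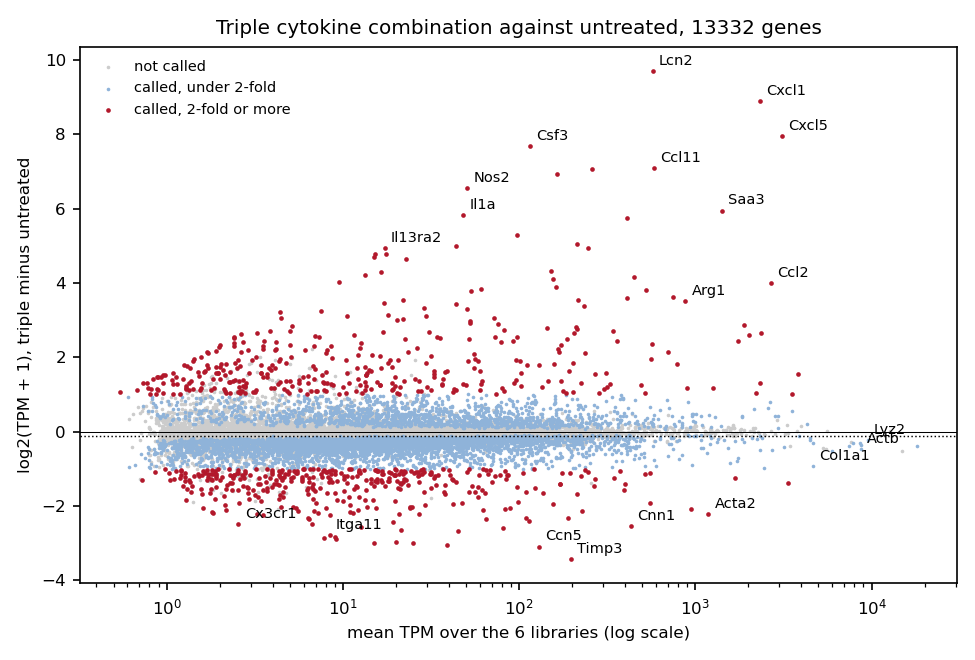
Each point is 1 of 13332 genes; the x axis is its mean TPM over the 6 libraries on a log scale and the y axis the log2(TPM + 1) difference, triple combination minus untreated. Lcn2 at 9.69 and Timp3 at -3.43 are the extremes, and the dotted line is the median of all genes at -0.11.

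Receptors determine which cytokine a cell can sense. Of 16 receptor chains and adaptors, 6 rose, 6 fell and 4 did not pass the test. Over all tested genes 13.0% were called higher and 31.5% lower, so the share of receptor genes that fell is near that of all genes. Il1rl1, the IL-33 receptor, had 345, 383 and 373 TPM in triple-treated libraries, against 49.0, 50.4 and 55.4 TPM in untreated libraries. The groups were far apart, with a log2 difference of 2.81 ± 0.08 (SE, adjusted p = 3.4e-11 in limma). Il13ra2, a decoy receptor that captures IL-13, had 29.8, 36.1 and 37.6 TPM after the triple combination and 0.152, 0.149 and 0.163 TPM without it. Its log2 difference was 4.94 ± 0.09 (adjusted p = 5.7e-13). Il13ra2 passed the filter through triple-treated libraries only, so it could only be higher, and its untreated values rest on 6 to 7 estimated reads per library. Another member passed through untreated libraries only, and of the other 14 members 5 rose and 6 fell. Signalling chains moved little: Il1rap rose by 0.55, Traf3ip2 by 0.44, Il13ra1 by 0.32 and Il4ra by 0.12 on the log2 scale. Il17ra, the chain shared by IL-17 receptors, fell by 0.41, and Irak4, Myd88, Stat6, Jak1 and Irak1 fell by 0.40, 0.31, 0.29, 0.28 and 0.19. The fall of Irak1 and the rise of Il4ra did not pass the test in every alternative fit. Traf6, Il17rc, Tyk2 and Il17rd had log2 differences of 0.01, -0.02, -0.09 and -0.24 and did not pass the test.

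Neutrophil chemokines and growth factors showed the strongest rise of any list. All 8 tested members rose by at least 2-fold, beside 2.73% of all tested genes. The list had a median log2 difference of 7.0, against -0.11 for all genes tested. Csf2 and Csf3 passed the filter through triple-treated libraries only, and the other 6 members all rose. Cxcl1, a main ligand of the neutrophil receptor CXCR2, had 4666, 4694 and 4629 TPM in triple-treated libraries, against 10.6, 6.05 and 10.8 TPM in untreated libraries. The treated libraries agreed closely with each other, and their mean was 510-fold higher (log2 difference 8.88 ± 0.15, adjusted p = 2.3e-13). Cxcl5, another CXCR2 ligand, had 5984, 6318 and 6258 TPM after the triple combination and 22.4, 26.5 and 23 TPM without it, a log2 difference of 7.96 ± 0.07. Cxcl2 had 508, 527 and 520 TPM in the treated libraries and 1.92, 5.48 and 2.06 TPM in the untreated ones. Cxcl3 had 346, 319 and 317 TPM, against 1.14, 1.94 and 2.13 TPM untreated. For both genes the untreated values rest on 4 to 10 estimated reads per library, so their size is less certain than their direction.

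Csf3 encodes G-CSF, the growth factor of neutrophils. It had 242, 216 and 233 TPM in triple-treated libraries and 0.420, 0 and 0 TPM in untreated libraries, where a single estimated read was found. The log2(TPM + 1) difference was 7.69 ± 0.13 (adjusted p = 1.8e-13). Csf2, which encodes GM-CSF, had 27.4, 31.4 and 32.0 TPM after treatment and 0, 0.473 and 0 TPM untreated, again 1 read in all. The platelet chemokines Pf4 and Ppbp, which neighbour the CXC genes, rose by 3.62 and 2.25 on the log2 scale. All 6 tested chemokine genes between Cxcl5 (chr5:90759360-90761624) and Cxcl2 (chr5:90903871-90905938) rose. The next gene downstream, Mthfd2l, rose by 0.59, and Epgn beyond it was not called (log2 difference 0.40, adjusted p = 0.25).

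**Figure D2:**
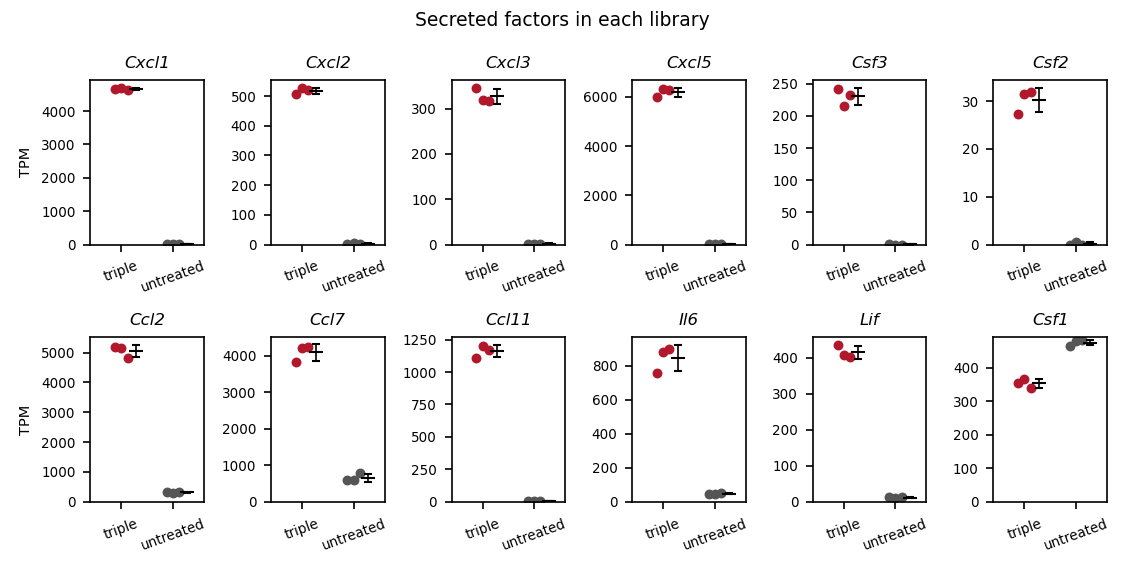
TPM of 12 secreted factors in each library, with triple-treated libraries left of untreated ones; points are libraries and the black bar is the mean ± SD of 3. Csf1 is the one panel in which the treated libraries, at 341 to 368 TPM, lie below the untreated ones.

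Factors that act on monocytes and macrophages mostly rose. Of 21 tested, 16 rose and 4 fell, beside 13.0% and 31.5% of all tested genes, and 1 did not pass. Rises of at least 2-fold numbered 12, beside 2.73% of all tested genes. Ccl2, the main monocyte chemokine, had 5185, 5168 and 4806 TPM in triple-treated libraries, against 331, 302 and 313 TPM in untreated libraries. Its log2 difference was 4.0 ± 0.08 (adjusted p = 6.3e-13). Ccl7, which shares its receptor, had 3832, 4202 and 4241 TPM after treatment and 587, 593 and 789 TPM without. Treated libraries were well above untreated ones for both. Il6, a cytokine of the acute phase response, had 757, 881 and 900 TPM after the triple combination and 46.1, 44.6 and 48.9 TPM untreated (log2 difference 4.15 ± 0.08). Lif, a cytokine of the same family, had 435, 407 and 400 TPM against 12.1, 10 and 12.4 TPM. Osm and Il11, 2 further members, rose by 3.42 and 2.80.

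Il1a, a cytokine of the IL-1 family, had 80.9, 102 and 105 TPM in triple-treated libraries and 1.05, 0.985 and 0.205 TPM in untreated ones. Its log2 difference was 5.82 ± 0.19 (adjusted p = 1.6e-10). Il1b rose by 2.61. The transcript of IL-33 itself was higher too: Il33 had 46.9, 58.4 and 55.1 TPM after treatment and 4.66, 4.39 and 4.30 TPM without, and the alarmin Tslp rose by 3.10. Csf1, the growth factor on which macrophages depend, went the other way, with 354, 368 and 341 TPM in triple-treated libraries against 466, 480 and 482 TPM in untreated libraries. The groups did not overlap, and the log2 difference was -0.43 ± 0.03 (adjusted p = 4.7e-07). Gas6, a ligand of macrophage TAM receptors, fell by 0.76, and Spp1, osteopontin, fell by 0.31. Tnf, an inflammatory cytokine made chiefly by macrophages, had 3.82, 6.17 and 7.67 TPM after treatment and 15.9, 22.4 and 16.2 TPM untreated, a fall of 1.5. Il33, Tslp, Ccl7 and Tnf were chosen for mention after their values were seen.

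Of 4 chemokines of type 2 inflammation 3 rose and none fell, beside 13.0% and 31.5% of all tested genes. Ccl24 passed the filter through treated libraries only and could only be higher. The largest rise was that of Ccl11, eotaxin, which attracts eosinophils. Ccl11 had 1110, 1202 and 1172 TPM in triple-treated libraries, against 6.0, 8.84 and 8.07 TPM in untreated libraries. No untreated library came near the treated ones, and the log2 difference was 7.09 ± 0.13 (adjusted p = 4.5e-13). Ccl8 had 510, 477 and 517 TPM after treatment and 279, 230 and 247 TPM without. Ccl24 rose by 1.70, on 6 to 10 estimated reads per treated library. Ccl17, at 0.90 ± 0.42, did not pass (adjusted p = 0.10). Of 8 tested lymphocyte and homeostatic chemokines, 4 rose and 1 fell, beside 13.0% and 31.5% of all tested genes. The other 3 did not pass. Ccl6 and Ccl9, chemokines of myeloid cells, rose by 2.86 and 2.14. Ccl20 and Ccl5 rose by 1.81 and 1.80 but stayed under 7 TPM in every library. Cxcl12, which retains cells in tissue, did not pass the test at -0.07 ± 0.04, and Cxcl16 fell by 0.17.

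Most response genes of the 3 pathways rose, but the lists share members. Nfkbiz and Zc3h12a are in both the IL-17 and the NF-kB list. Csf3, Cxcl1, Cxcl5, Il6, Lcn2, Saa3, Steap4 and Ptx3 of the IL-17 list also belong to the neutrophil, monocyte or acute phase lists. In the IL-17 response list 16 of 17 tested members rose and 1 fell, beside 13.0% and 31.5% of all tested genes. Csf3, Lcn2, Nos2 and Steap4 reached 1 TPM in no untreated library, so they passed the filter through treated libraries only and could only be higher. Of the other 13 members 12 rose, with a median of 2.91 over the 13. Lcn2, a protein that binds bacterial iron carriers, had the largest log2 difference of all genes. It had 1099, 1146 and 1198 TPM in triple-treated libraries and 0.274, 0.626 and 0.294 TPM in untreated libraries, which held 1, 2 and 1 estimated reads. The difference was 9.69 ± 0.10 on the log2(TPM + 1) scale (adjusted p = 3.7e-15). Nos2, inducible nitric oxide synthase, had 98.5, 99.5 and 105 TPM after treatment and 0.0503, 0.0862 and 0.135 TPM without, at 6.55 ± 0.07. Zc3h12a, an RNase that limits cytokine mRNA, rose by 4.32, and Nfkbiz, a nuclear co-factor of NF-kB needed for IL-17 target genes, rose by 3.07. The transcription factors Cebpd and Cebpb rose by 1.26 and 1.05. Rc3h1, roquin, was the member that fell, by 0.35.

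Of 23 NF-kB subunits and feedback genes, 16 rose and none fell, beside 13.0% and 31.5% of all tested genes. In alternative fits up to 3 fell, the most when mitochondrially encoded genes were left out. Traf1 passed the filter through triple-treated libraries only and could only be higher, and of the other 22 members 15 rose. The inhibitors Nfkbia and Tnfaip3 rose by 1.58 and 1.09, and the subunits Nfkb1, Nfkb2 and Relb by 1.22, 0.79 and 0.60. Rela and Rel, at -0.17 and 0.17, did not pass. In the STAT6 response list 12 of 13 tested members rose, beside 13.0% of all tested genes. Chil3 and Il13ra2 passed the filter through triple-treated libraries only, and of the other 11 members 10 rose. Arg1, arginase, a classic marker of the type 2 response, had 1603, 1598 and 1630 TPM in triple-treated libraries, against 143, 144 and 136 TPM in untreated libraries. Both groups were tight, and the log2 difference was 3.51 ± 0.05 (adjusted p = 3.2e-14). Aldh1a3, an enzyme that makes retinoic acid, had 43.9, 46.5 and 44.6 TPM after treatment and 1.06, 0.836 and 0.638 TPM without. Cish, a feedback inhibitor of STAT signalling, rose by 3.79, and Mrc1, a mannose receptor of macrophages, by 1.57. Tgm2, at -0.08 ± 0.03, did not pass.

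All 15 tested acute phase and metal-binding genes rose, 14 of them by 2-fold or more, beside 13.0% and 2.73% of all tested genes. Of the 15 members, 5 passed the filter through triple-treated libraries only (Hamp, Lcn2, Saa1, Serpina3f and Steap4) and so could only be higher. Saa3, serum amyloid A, had 2888, 2686 and 2813 TPM in triple-treated libraries and 38.9, 40.4 and 55.7 TPM in untreated libraries, a log2 difference of 5.94 ± 0.10. Serpina3g, a serine protease inhibitor, rose by 5.74 and the metalloreductase Steap4 by 4.29. Serpina3g has close copies in its cluster on chromosome 12, and how reads matching several genes were counted is not given in the sources used here. The metallothioneins Mt2 and Mt1 rose by 1.54 and 1.02. Hamp, Serpina3f and Saa1 were listed at 0 in all 3 untreated libraries. Hamp, hepcidin, the regulator of iron export, had 2.74, 3.44 and 5.76 TPM in triple-treated libraries. Camp and S100a8, antimicrobial genes best known from neutrophils and the 2 tested members of the neutrophil and eosinophil markers, rose by 4.78 and 2.91. Camp passed the filter through triple-treated libraries only and so could only be higher. Other neutrophil and eosinophil markers were near 0: Mpo averaged 0.233 TPM in triple-treated libraries and 0.281 TPM in untreated ones, and Siglecf 0.387 and 0.389 TPM.

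**Figure D3:**
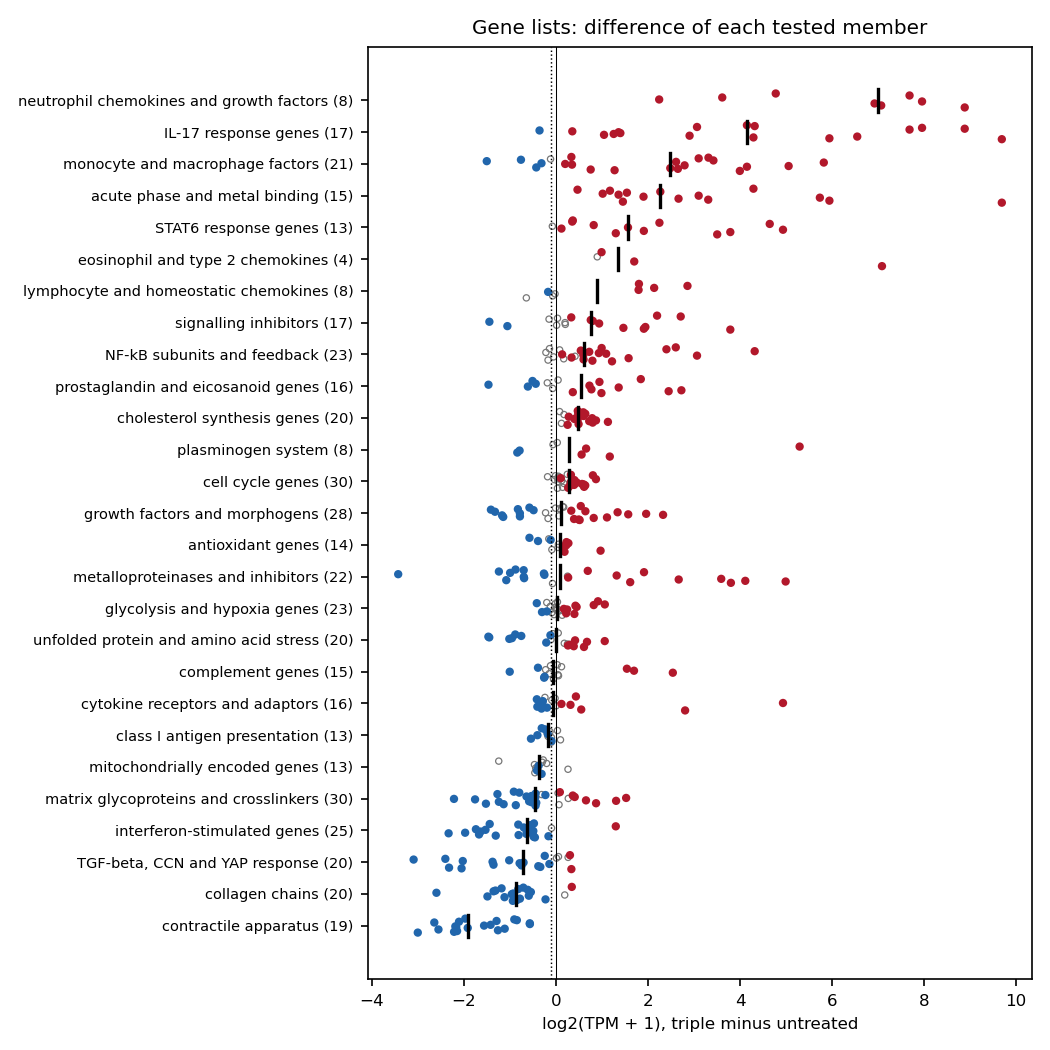
Log2(TPM + 1) difference, triple combination minus untreated, of each tested member of the gene lists, cell type marker lists left out, with the number tested in brackets. Red points rose, blue points fell, open points did not pass the test, the bar is the list's median and the dotted line the median of all genes at -0.11; neutrophil chemokines (median 7.0) stand at the top and contractile genes (median -1.91) at the bottom.

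Genes of the contractile apparatus fell without exception. All 19 tested members fell, 15 of them by 2-fold or more, with a median log2 difference of -1.91, beside 31.5% of all tested genes called lower. Of these 19, 2 passed the filter through untreated libraries only and could only be lower, and the other 17 fell as well. Acta2, smooth muscle actin, the usual marker of contractile fibroblasts, had 406, 430 and 428 TPM in triple-treated libraries, against 1955, 1993 and 1915 TPM in untreated libraries. Every treated library was far below every untreated one, with a log2 difference of -2.21 ± 0.04 (adjusted p = 1.0e-12). Cnn1, calponin, had 120, 128 and 126 TPM after treatment and 756, 740 and 710 TPM without, at -2.55 ± 0.04. The myosin light chain Myl9 had 270, 209 and 221 TPM against 857, 837 and 943 TPM. Acta1, skeletal actin, and Lmod1, leiomodin, fell by 3.0 and 2.64, and the myosin light chain kinase Mylk by 2.16. The mildest falls were of Cald1 and Smtn, by 0.56 and 0.57. Acta1, Myl9, Ldb3 and Cnn2, whose CArG boxes are printed above, fell by 3.0, 1.91, 1.29 and 1.11.

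Markers of smooth muscle and pericytes moved the same way. Of 6 tested, 5 fell, beside 31.5% of all tested genes. The summed level of the list's 8 genes was 50.6 to 54.8 TPM in triple-treated libraries and 222 to 227 TPM in untreated libraries. Des and Myh11 belong to both lists. Mcam, an adhesion molecule of pericytes, had 6.30, 9.12 and 7.90 TPM after treatment and 66.6, 70.8 and 74.2 TPM without. The pericyte markers Rgs5 and Abcc9 were below the filter, at 0.601 and 0.0659 TPM in triple-treated libraries and 0.155 and 0.159 TPM in untreated ones. The part of these cells in the fall of the contractile genes was not tested.

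Of 20 TGF-beta, CCN and YAP response genes, 15 fell and 2 rose, and 8 fell by at least 2-fold. After median-ratio scaling 13 fell and 5 rose. Over all tested genes 31.5% fell and 13.0% rose, and 19.3% and 21.2% after that scaling. Ccn5 had 26.3, 25.8 and 27.6 TPM in triple-treated libraries, against 228, 242 and 231 TPM in untreated libraries, a log2 difference of -3.09 ± 0.05 (adjusted p = 2.5e-13). Ccn2, connective tissue growth factor, had 1852, 1941 and 1810 TPM after treatment and 4954, 4977 and 4614 TPM without. Treated values were well apart from untreated values for both. Tgfb3 and Tgfb2, ligands of the pathway, fell by 2.32 and 2.05, while Tgfb1 rose by 0.34. Ankrd1, a target of YAP, fell by 2.40. Postn, periostin, known as an IL-13 target, rose by 0.31.

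Collagen chains fell in 18 of 20 tested cases, beside 31.5% of all tested genes. Of the 18, 6 fell by 2-fold or more, and the median of the list was -0.88. Col1a1 had 3447, 3174 and 2946 TPM in triple-treated libraries, against 6501, 6440 and 5380 TPM in untreated libraries. The lowest untreated library was above the highest treated one, and the log2 difference was -0.93 ± 0.10 (adjusted p = 7.5e-06). Col6a3, a chain of the beaded-filament collagen, fell most, with 22, 22 and 23.1 TPM after treatment and 141, 136 and 144 TPM without (-2.59 ± 0.04). Col3a1 fell by 0.22, and Col18a1 was the chain that rose, by 0.35. Of 30 matrix glycoproteins and crosslinkers 19 fell and 7 rose, beside 31.5% and 13.0% of all tested genes. Ogn, Fmod and Fbln5 fell by 2.21, 1.76 and 1.52. Has1, a hyaluronan synthase, and Dcn, decorin, rose by 1.53 and 1.31, and the crosslinker Lox rose by 0.41.

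Matrix proteases and their inhibitors split evenly, with 10 of 22 higher and 10 lower, beside 13.0% and 31.5% of all tested genes. The 4 largest rises were of secreted proteases. Mmp9, a gelatinase, had 84.8, 88.2 and 86.7 TPM in triple-treated libraries and 1.84, 1.58 and 1.83 TPM in untreated libraries (4.99 ± 0.05). Mmp3, stromelysin, had 941, 987 and 1007 TPM after treatment and 73.0, 62.5 and 72.4 TPM without. Mmp13, a collagenase, had 669, 812 and 788 TPM against 58.2, 60.9 and 65.7 TPM, and Mmp10 rose by 4.12. Timp3, an inhibitor of metalloproteinases that is held in the matrix, had 30.9, 33.2 and 34.2 TPM in triple-treated libraries against 344, 370 and 372 TPM in untreated libraries. Its log2 difference of -3.43 ± 0.06 (adjusted p = 2.3e-13) was the lowest of all tested genes. The inhibitor Timp1 rose by 1.32, Timp2 fell by 0.25, and Mmp2 did not pass at -0.07 ± 0.04. Of 8 genes of the plasminogen system 4 rose and 2 fell, and the share that fell is near that of all tested genes. Serpinb2, an inhibitor of urokinase, rose by 5.30, and Plau, urokinase, by 1.17.

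**Figure D4:**
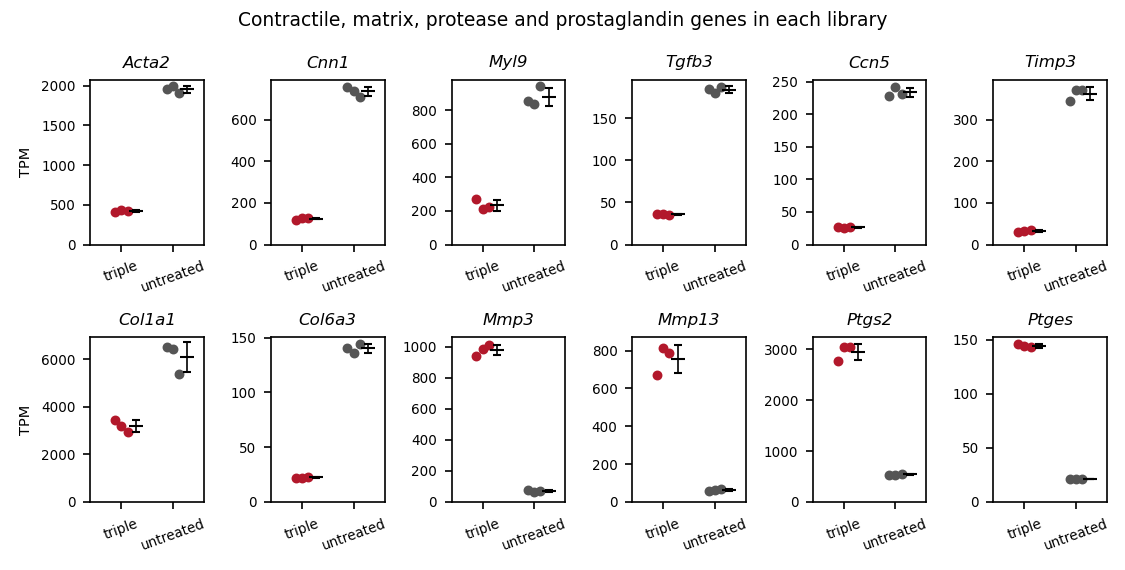
TPM of 12 contractile, matrix, protease and prostaglandin genes in each library, with triple-treated libraries left of untreated ones; points are libraries and the black bar is the mean ± SD of 3. Acta2 to Col6a3 lie lower in treated libraries, while Mmp3, Mmp13, Ptgs2 and Ptges lie higher, and no panel overlaps.

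Of 16 prostaglandin and eicosanoid genes 9 rose and 4 fell, beside 13.0% and 31.5% of all tested genes. The share that fell is near that of all genes. Ptgs2, the inducible cyclooxygenase, had 2772, 3048 and 3043 TPM in triple-treated libraries, against 535, 534 and 549 TPM in untreated libraries (log2 difference 2.45 ± 0.05, adjusted p = 9.9e-13). Ptges, which makes prostaglandin E2 from its product, had 146, 144 and 143 TPM after treatment and 21.1, 20.7 and 21.0 TPM without. Both groups were tight for each gene. Pla2g4a, the phospholipase that frees arachidonic acid, rose by 0.99, and the prostacyclin synthase Ptgis and its receptor Ptgir by 1.37 and 1.85. The prostaglandin D synthase Hpgds fell by 0.61, and the prostaglandin E synthase Ptges3 did not pass at -0.07. Hpgd, which degrades prostaglandins, fell by 1.46, and the receptor Ptger4 by 0.51. Hpgd passed the filter through untreated libraries only and could only be lower, and of the other 15 members 9 rose and 3 fell. Complement genes were mixed, with 3 of 15 higher and 4 lower, and after median-ratio scaling 5 were higher and 3 lower. These shares lie near those of all tested genes, 13.0% higher and 31.5% lower. C3, Cfb and Cfp rose by 2.54, 1.70 and 1.54, and C4b fell by 1.0.

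Interferon-stimulated genes fell in 23 of 25 tested cases, beside 31.5% of all tested genes. Of the 23, 8 fell by 2-fold or more, and the median of the list was -0.63. Again 2 members passed the filter through untreated libraries only, and of the other 23 members 21 fell. Ifit3 had 1.58, 1.65 and 1.11 TPM in triple-treated libraries, against 9.74, 11.1 and 13.1 TPM in untreated libraries. Its groups were separate, at -2.33 ± 0.25 (adjusted p = 9.4e-06), on 6 to 9 estimated reads per treated library. Isg15, a ubiquitin-like protein, had 13.6, 20.6 and 19.3 TPM after treatment and 50.3, 52.4 and 68.9 TPM without. Ifi44 and Rsad2 fell by 1.97 and 1.74, and the transcription factor Irf7 by 1.31. The factors Stat2 and Irf9, which drive these genes, fell by 0.48 and 0.81. Gbp7 was the member that rose, by 1.30. Of 13 class I antigen presentation genes 6 fell and none rose, beside 31.5% of all genes called lower. After median-ratio scaling 2 of 13 fell, beside 19.3% of all genes. The largest fall was that of H2-T23, by 0.54.

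Feedback and growth factor genes moved in both directions. Of 17 signalling inhibitors 10 rose and 2 fell, beside 13.0% and 31.5% of all tested genes. After median-ratio scaling 14 rose and 2 fell, beside 21.2% and 19.3% of all genes. Socs3, an inhibitor of STAT3 signalling, had 967, 858 and 831 TPM in triple-treated libraries against 242, 242 and 204 TPM in untreated libraries. Rgs16 and Rgs4, which limit G-protein signals, rose by 2.71 and 2.20, and Spry1 and Dusp1 fell by 1.44 and 1.05. Among growth factors and morphogens 12 of 28 rose and 9 fell, and after median-ratio scaling 16 rose and 9 fell. The share that fell is near the 31.5% of all tested genes. Ereg, Hbegf and Areg, ligands of the EGF receptor, rose by 2.33, 1.96 and 1.57. Areg passed the filter through triple-treated libraries only and could only be higher. Of the other 27 growth factors and morphogens 11 rose and 9 fell. Vegfa had 396, 398 and 396 TPM after treatment and 223, 227 and 222 TPM without. Dkk2, a Wnt antagonist, Bmp4 and Igf1 fell by 1.41, 1.32 and 0.78.

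Genes of fibroblast identity fell more often than they rose, with 10 of 14 markers lower and 3 higher, beside 31.5% and 13.0% of all tested genes. Tcf21, a transcription factor of lung fibroblasts, and Pdgfrb, a receptor for PDGF, fell by 1.13 and 1.0, while Twist2 rose by 1.53. Of 15 macrophage markers 9 fell and 3 rose, and after median-ratio scaling 5 fell and 4 rose. Over all tested genes 31.5% fell and 13.0% rose, and 19.3% and 21.2% after that scaling. Cx3cr1, the fractalkine receptor of macrophages, had 0.0922, 0.108 and 0.0456 TPM in triple-treated libraries, against 5.04, 4.79 and 5.27 TPM in untreated libraries. Its log2 difference was -2.48 ± 0.07 (adjusted p = 4.8e-11). Cx3cr1 passed the filter through untreated libraries only, so it could only be lower, and of the other 14 markers 8 fell and 3 rose. Adgre1, the F4/80 antigen, did not pass at 0.07 ± 0.04, and Itgam rose by 0.69.

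The triple combination was also set against its closest neighbours, cultures given the pair IL-33/17A or the pair IL-33/13. Against IL-33/17A 2215 genes differed (16.6%), against IL-33/13 1054 (7.91%) and against IL-33 alone 3423 (25.7%). These comparisons share the triple-treated libraries, so their values are given side by side. Both smaller counts depended on the fit. With the 2 groups compared alone, 800 and 574 genes were called, and without triple-treated replicate 1 the counts were 2571 and 2018. All 3 IL-33/13 libraries and IL-33/17A replicates 2 and 3 shared the low mitochondrial share of triple-treated replicate 1. With a term for these libraries in the fit, 2489 genes were called against IL-33/17A and 576 against IL-33/13. Why the counts moved was not tested.

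Genes called higher in the triple combination than in each of the other 4 groups numbered 135 (1.01%), and those called lower 237 (1.78%). The filter used only triple-treated and untreated libraries. Through triple-treated libraries alone 132 tested genes passed, among them Fgf23 and Hamp, and these could only be higher than untreated. Through untreated libraries alone 176 passed, among them Gm31532, and these could only be lower than untreated. Cxcl2 averaged 518 TPM in the triple combination, 165 with IL-33/17A, 168 with IL-33/13, 52.6 with IL-33 and 3.15 TPM untreated. The triple value exceeded that of IL-33/17A by 1.64 ± 0.24 (adjusted p = 0.00064) and that of IL-33/13 by 1.62 ± 0.24 (adjusted p = 0.0015) on the log2 scale. Csf3 averaged 231 TPM in the triple combination, 105 with IL-33/17A, 40.2 with IL-33/13, 15.4 with IL-33 and 0.140 TPM untreated. Fgf23, a hormone of phosphate balance, averaged 4.80, 0.492, 1.02 and 0.445 TPM in the same order of treatments and was listed at 0 in untreated libraries. Hamp, Nppb, a natriuretic peptide, and Trdc, the constant segment of a T cell receptor chain, completed the higher set by the naming rule. Lower than all were Cnn1, Lmod1, Myl9, Dio3, Pnck and the processed pseudogene Gm31532, which rests on 0 estimated reads in triple-treated and 7 in untreated libraries. Cnn1 averaged 125 TPM in the triple combination, 217 with IL-33/17A, 241 with IL-33/13, 462 with IL-33 and 736 TPM untreated. Dio3, which inactivates thyroid hormone, averaged 4.80, 19.1, 9.21 and 38.6 TPM in that order and 45.2 TPM untreated.

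Other genes lay closer to 1 of the pairs. Ccl11 averaged 1161 TPM in the triple combination and 944 TPM with IL-33/13, a difference that did not pass (0.30 ± 0.13, adjusted p = 0.19), and 112 TPM with IL-33/17A (3.36 ± 0.13, adjusted p = 8.8e-09). Arg1 averaged 1611 TPM in the triple combination, 810 TPM with IL-33/17A (0.99 ± 0.05, adjusted p = 6.8e-08) and 1658 TPM with IL-33/13 (-0.04 ± 0.05, adjusted p = 0.63). Nos2 averaged 101 TPM in the triple combination, 129 TPM with IL-33/17A and 7.01 TPM with IL-33/13. Its difference was -0.34 ± 0.07 from IL-33/17A (adjusted p = 0.0035) and 3.67 ± 0.07 from IL-33/13 (adjusted p = 7.7e-12). Csf1 averaged 354 TPM in the triple combination, 335 TPM with IL-33/17A and 637 TPM with IL-33/13, and differed from IL-33/13 (-0.84 ± 0.03, adjusted p = 2.0e-08). Of the 19 contractile genes, 16 were lower than with IL-33/17A and 17 lower than with IL-33/13, beside 9.55% and 4.27% of all tested genes. Of the 8 neutrophil factors, 7 were higher than with each pair, beside 7.07% and 3.64%.

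**Figure D5:**
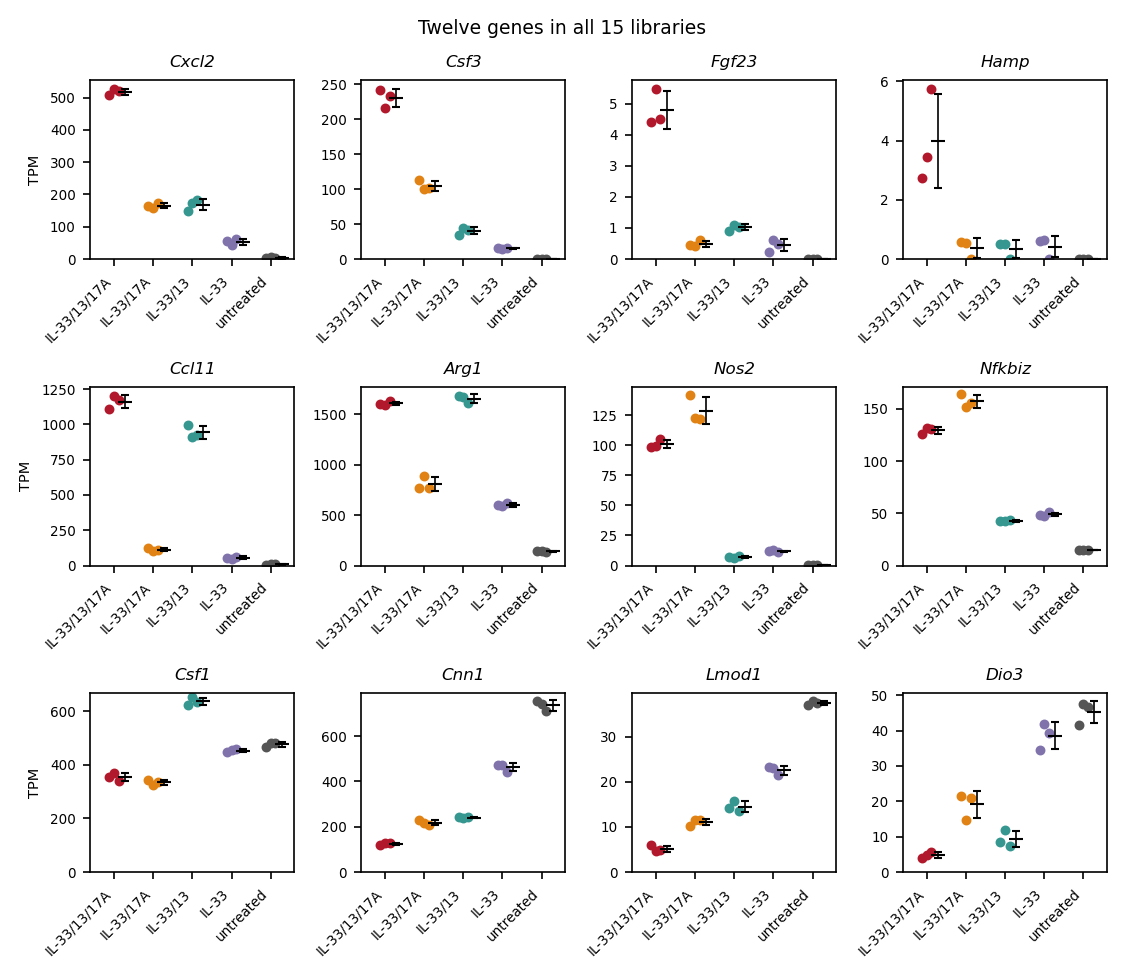
TPM of 12 genes in all 15 libraries, from the triple combination on the left to untreated on the right; points are libraries and the black bar is the mean ± SD of 3. Cxcl2, Csf3, Fgf23 and Hamp are highest and Cnn1, Lmod1 and Dio3 lowest in the triple combination, while Arg1 and Ccl11 lie near IL-33/13 and Csf1 near IL-33/17A.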

How the data were processed

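RNA of 15 libraries was sequenced on a NovaSeq6000 after extraction with a Qiagen RNeasy kit, per the labels' protocols. The deposited files give TPM per gene for Ensembl gene models, per the file headers. The submitters' processing notes name HISAT2, without a version, and build mm10. The tool that computed TPM, its use of strand and its treatment of reads matching several genes are not stated there or in any label. Value times gene span, introns included, fell on whole multiples of 1 constant for 90.9% to 92.1% of low values (tolerance 0.05), so reads per gene were estimated. Depth was 10.5 to 15.1 M reads, and 1 read on a span of 1 kb was worth 0.730 to 1.13 TPM. Read floors cover counting error only. The ± values of log2 differences are limma standard errors, which measure how much the libraries vary.

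The members and the 36 gene lists were chosen with earlier results of these data known. A gene passed at 1 TPM or more in 3 of the 6 libraries (4746 genes did not). Log2(TPM + 1) of all 15 libraries was fitted with limma 3.58.1 (R 4.3.3, trend and robust), with a mean per group, which gives all groups 1 estimate of the spread. P-values were adjusted by Benjamini-Hochberg over all tested genes, with a threshold of 0.05, and the fit was tested on simulated data. Fold changes on this scale understate low genes. Named genes were the 12 largest and 12 smallest called differences with separate groups, the 4 largest called members of each list, all receptors, the 6 most extreme against all 4 groups in each direction, the 6 most abundant called genes in each direction, and Csf1, Lyz2, Col1a1 and Acta2. Other list members are named as examples, after their values were seen. Promoters are from RefSeq (GRCm38.p6). Python 3.11.15, pandas 2.3.3, numpy 2.4.6 and matplotlib 3.10.9 were used. Alternatives were other pseudocounts, filters, scaling, library sets, left-out replicates and voom on estimated reads. Some list members are not reported here.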

Additional observations from a re-analysis of the deposited data

How the results depend on the processing

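Against untreated, 4825 genes (filter at 5 TPM, which tests fewer genes) to 6555 genes (no filter) were called over all alternatives, and 515 (filter at 5 TPM) to 939 (voom) at 2-fold or more, with 933 for a pseudocount of 0.1 TPM and 709 to 738 when 1 library was left out. The direction split moved with scaling: median-ratio scaling gave 2818 higher and 2572 lower, and voom on estimated reads, chosen after seeing the data, gave 2745 and 2733. Leaving out 1 library gave 5083 to 5623 calls, 1490 to 1664 higher and 3419 to 4043 lower. Counts against the pairs were less stable, and the cause was not tested. Against IL-33/17A, 800 genes were called with the 2 groups alone. The 9 libraries outside the low mitochondrial set (added after seeing the data) gave 858. A term for that set gave 2489, and leaving out 1 library gave 1454 to 2571. Against IL-33/13, 574 were called with the 2 groups alone, 576 with a term for that set, 1659 with voom, and 502 to 2018 when 1 library was left out, the highest without triple-treated replicate 1. Against IL-33 alone, leaving out 1 library gave 2688 to 3040. No paired analysis was possible because the labels give no replicate pairing. The replicate numbers used here serve only to tell the libraries of a group apart. Of 2748 alternative values of 163 named genes, 2671 kept their direction and side of the threshold, 65 lost the call, 1 gained it and 11 changed sign. The sign changes were all of uncalled receptor genes: Tyk2 (0.0383 with median-ratio scaling, 0.0333 with voom), Il17rc (0.111 and 0.106 with these, 0.00806 in the 9 libraries, and -0.0885 to 0.0821 when 1 library was left out) and Traf6 (-0.0116 without mitochondrially encoded genes, and -0.0548 to 0.125 when 1 library was left out). Values under about 3 TPM on a 1 kb span rest on about 3 reads.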

Other observations

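Of 20 cholesterol synthesis genes, 17 rose and none fell, 1 of them by 2-fold or more, with a median log2 difference of 0.49 against -0.11 for all genes. Mvd and Fdps, enzymes of the mevalonate pathway, rose by 1.13 and 0.87. Of 30 cell cycle genes 17 rose and none fell, and 26 rose after median-ratio scaling. Rrm2, a subunit of ribonucleotide reductase, had 260, 260 and 258 TPM in triple-treated libraries and 141, 148 and 135 TPM in untreated libraries, while Mki67 did not pass at 0.03 ± 0.12. Of 23 glycolysis and hypoxia genes 9 rose and 3 fell, and of 14 antioxidant genes 6 rose and 3 fell. After median-ratio scaling 12 rose and 2 fell in the glycolysis list, and 9 rose and 2 fell in the antioxidant list. Over all tested genes 13.0% rose and 31.5% fell, and 21.2% and 19.3% after that scaling.

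Genes of the unfolded protein response moved in both directions. Of 20 tested, 7 rose and 8 fell, and after median-ratio scaling 9 rose and 6 fell, beside 13.0% and 31.5% of all tested genes in the first case and 21.2% and 19.3% in the second. The chaperones Pdia4 and Hspa5 rose by 1.06 and 0.61, whereas Chac1, Trib3, Atf3 and Ddit3, targets of the amino acid and integrated stress response, fell by 1.47, 1.45, 1.01 and 0.95. Asns, asparagine synthetase, had 41.8, 48.1 and 46.9 TPM after the triple combination and 76.0, 73.9 and 82.2 TPM untreated. Of 13 mitochondrially encoded genes 3 fell, and none was called after median-ratio scaling or without triple-treated replicate 1. Processed pseudogenes, 753 of which were tested, had a median log2 difference of 0.20, with 47 higher and 26 lower, and may share reads with their parent genes. Epithelial, endothelial, mast cell, mesothelial and lymphocyte marker lists had 3, 2, 3, 6 and 2 tested members. Of these 2, 1, 1, 0 and 0 rose and 1, 1, 0, 4 and 0 fell. Cdh1, E-cadherin, had 2.36, 1.95 and 2.49 TPM after treatment and 0.193, 0.153 and 0.302 TPM without. Cdh1 passed the filter through triple-treated libraries only and could only be higher.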
